A study of Mus musculus with 4 samples.

Results

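The cells described here are luminal cells of mouse mammary tumors that carried RNA of Kit or Aldh1a3, genes used to mark luminal progenitors. They were selected on measured counts of unique molecular identifiers (UMIs, each 1 captured RNA molecule). A cell was a member if it had at least 2000 UMIs and at most 20% of them from mitochondrial genes, at least 10 UMIs per 10000 of Epcam, Krt8 and Krt18 together, under 50 per 10000 of 6 milk protein genes (Csn2, Csn3, Csn1s1, Csn1s2a, Wap and Lalba), under 10 of the hormone-sensing genes Prlr, Cited1 and Foxa1, under 5 of the cell cycle genes Mki67, Top2a, Birc5, Cdk1 and Ube2c, no Ptprc, and at least 2 UMIs of Kit and Aldh1a3 together. There were 1489 members among 23876 barcodes with at least 2000 UMIs, 20892 of which were within the mitochondrial limit. All limits but the one on Kit and Aldh1a3 were met by 3096 cells, called eligible below, of which 1211 had no UMI of either gene (zero cells) and 396 had 1.

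The study asked what loss of Frmd8, a FERM domain protein, does to PyMT mammary tumors, and one library was made from the tumor of each of 4 mice with the 10x Chromium 3' v3 kit. Both Cre- mice were MMTV-Cre-; Frmd8 fl/fl; PyMT (replicates 1 and 3), and both Cre+ mice were MMTV-Cre+; Frmd8 fl/fl; PyMT (replicates 2 and 4), so that every mouse carried the floxed alleles and the MMTV-driven polyoma middle T oncogene, and the Cre+ mice also an MMTV-driven Cre. The tumors were taken at 17 to 18 weeks of age and the cells were FACS sorted, with the gate not given in the sources used here. MMTV drives Cre in mammary epithelium, the loxP sites flank internal exons of Frmd8, and the kit reads 3' ends, so the counts below do not measure the deletion itself. Whether each member was a malignant cell was not tested.

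Luminal progenitors are epithelial cells of the inner layer of the mammary duct that can divide and give rise to secretory cells. Kit is the receptor tyrosine kinase for stem cell factor, Aldh1a3 makes retinoic acid from retinal, and Elf5 is an ETS family transcription factor that drives progenitors toward the milk-producing alveolar fate. In mouse mammary gland these genes are low in mature hormone-sensing cells and in the basal, myoepithelial layer.

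The windows around the annotated starts of 3 genes the results turn on are shown because Elf5 binds ETS sites: Kit was part of the selection, Elf5 was the marker of the label it left out, and Ltf, encoding lactoferrin, had the largest fold change over zero cells among called genes with a mean of at least 20 counts per 1000000. Each runs 5′ to 3′ from 250 bases before to 50 bases after the start, from RefSeq on GRCm38.p6, with the ETS core letters GGAAG (or CTTCC on the other strand) in capitals. The windows are chr5:75574737-75575036 (+ strand) for Kit, chr2:103411848-103412147 (+ strand) for Elf5 and chr9:111019042-111019341 (+ strand) for Ltf.
Kit: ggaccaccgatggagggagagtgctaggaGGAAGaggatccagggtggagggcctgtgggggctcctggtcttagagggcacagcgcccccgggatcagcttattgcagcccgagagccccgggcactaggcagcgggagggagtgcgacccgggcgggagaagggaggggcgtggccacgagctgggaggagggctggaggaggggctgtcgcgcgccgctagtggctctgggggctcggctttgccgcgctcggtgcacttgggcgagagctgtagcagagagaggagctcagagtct
Elf5: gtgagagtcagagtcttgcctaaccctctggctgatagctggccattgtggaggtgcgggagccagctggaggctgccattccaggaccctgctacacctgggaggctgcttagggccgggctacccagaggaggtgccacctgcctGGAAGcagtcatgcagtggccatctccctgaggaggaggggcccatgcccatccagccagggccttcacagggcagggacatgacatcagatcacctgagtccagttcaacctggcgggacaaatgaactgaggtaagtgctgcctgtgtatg
Ltf: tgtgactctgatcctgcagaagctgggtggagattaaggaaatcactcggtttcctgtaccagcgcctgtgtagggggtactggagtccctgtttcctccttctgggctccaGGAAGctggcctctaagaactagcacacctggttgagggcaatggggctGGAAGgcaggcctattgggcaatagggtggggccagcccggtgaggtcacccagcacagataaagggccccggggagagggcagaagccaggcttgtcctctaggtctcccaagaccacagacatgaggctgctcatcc
The letters occurred at 1 place in the Kit window, 1 in the Elf5 window and 2 in the Ltf window. They were found in 23460 of 32851 promoters of this length (71.4%, median 1), so a match is common and describes letters, not binding. Kit and Elf5 each have 2 starts in the table, and 1 is shown. Aldh1a3 and Krt17 were not in the table.

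The Cre- libraries held 122658098 (replicate 1) and 126843597 UMIs (replicate 3), and the Cre+ libraries 112729231 (replicate 2) and 157662955 UMIs (replicate 4). Replicate 4 stood apart before any result: its file listed 2582424 barcodes, down to 0 UMIs, where the others listed 7020, 8017 and 7411 barcodes (replicates 1, 3 and 2) of at least 500 UMIs, and its header named another Cell Ranger version. With a minimum of 2000 UMIs the libraries gave 5550, 5871, 5879 and 6576 barcodes. Values below are in this same order, Cre- replicates 1 and 3 and then Cre+ replicates 2 and 4. Libraries shared 8 to 14 barcodes a pair, and no member barcode was shared.

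Members came from every tumor, with 143, 175, 348 and 823 cells, most of them in Cre+ replicate 4. They were deep cells, with median UMIs of 38543, 32425, 27397 and 24522, against 6046.5, 10253, 7453 and 6513 in zero cells. Depth moved with membership in every library, and a deeper cell has more chances to show 2 UMIs of any gene. The cause of the difference in depth was not tested. The comparison with zero cells was run also on cells matched on depth. Just inside the limit, 224 members had exactly 2 UMIs of Kit and Aldh1a3, and just outside it 396 cells had 1. The median member had 4, 4, 7 and 6 such UMIs.

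Most members were chosen by Kit. Of the 1489 members, 1201 (80.7%) had Kit and no Aldh1a3, 253 (17.0%) had both and 35 (2.35%) had Aldh1a3 alone. Kit made up 48.7%, 40.4%, 93.7% and 89.4% of the UMIs that met the limit, and the value of Cre- replicate 3 rests on 1 cell of 890 Aldh1a3 UMIs, without which it was 82.1%. In summed members Kit (ENSMUSG00000005672) was at 94.6, 98.9, 232 and 251 UMIs per 1000000 (CPM), higher in both Cre+ libraries. Casein-high cells had 50 or more milk protein UMIs per 10000 and any number of Kit and Aldh1a3 UMIs, and met the other limits. Of them 73.6%, 56.8%, 82.2% and 69.7% had at least 2 UMIs of Kit and Aldh1a3, so most differed from members by the milk limit alone. In casein-high cells Kit was at 109, 78.2, 230 and 113 CPM, with Cre- replicate 1 close to Cre+ replicate 4. These values chose the members and are descriptions, with no test.

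Aldh1a3 (ENSMUSG00000015134) was at 99.7, 146, 15.8 and 29.7 CPM in members, higher in both Cre- libraries. That single cell of Cre- replicate 3 held 890 of the 1045 Aldh1a3 UMIs of its library (85.2%), the next cell having 32. That cell had 49333 UMIs in all and 0 of Kit and Elf5. Without it the library's members were at 21.8 CPM of Aldh1a3, between the Cre+ libraries, so that Cre- replicate 1 alone was higher. Macrophage-marked cells, which should lack both genes, had at least 2 Ptprc UMIs, at least 10 UMIs per 10000 of Lyz2, C1qa, C1qb, C1qc and Csf1r, and under 10 per 10000 of Epcam, Krt8 and Krt18. They showed 2.65, 1.74, 5.37 and 2.49 CPM of Kit and 0.501, 0.696, 3.02 and 0.919 CPM of Aldh1a3.

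**Figure D1:**
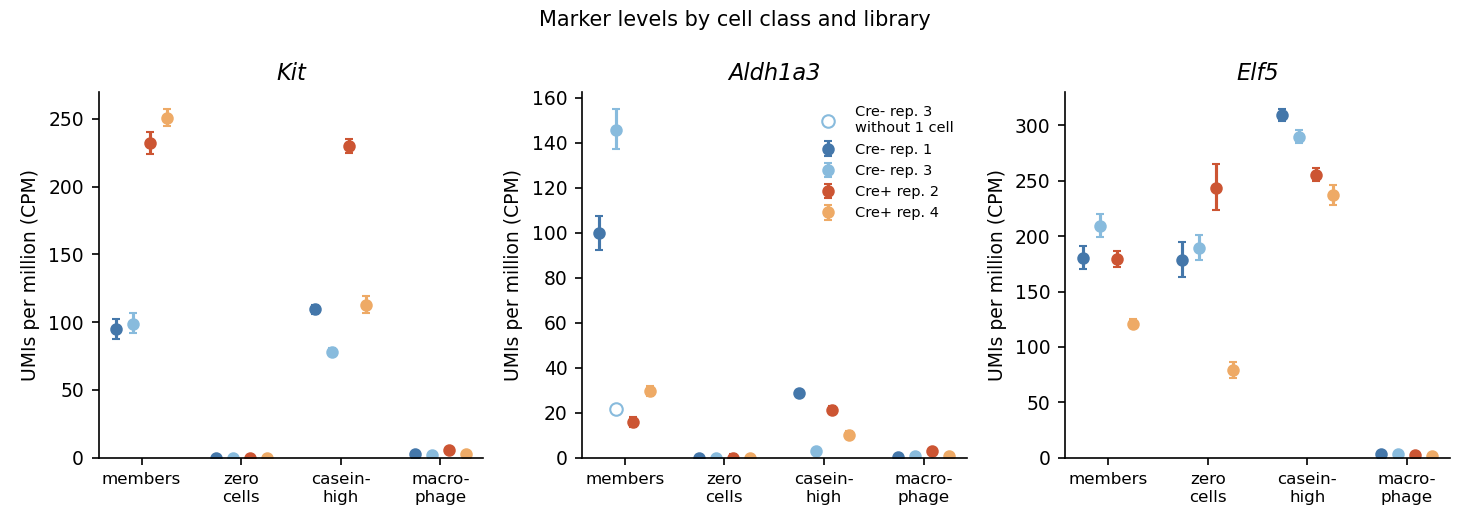
Levels (UMIs per 1000000) of Kit, Aldh1a3 and Elf5 in summed members, zero cells, casein-high cells and macrophage-marked cells, 1 point a library with its exact 95% Poisson interval. Kit and Aldh1a3 are 0 in zero cells by the rule, the open circle is Cre- replicate 3 without the single cell of 890 Aldh1a3 UMIs, and Elf5 differs between zero cells and members in opposite directions in the 2 Cre+ libraries and is near 0 in macrophage-marked cells.

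Elf5 (ENSMUSG00000027186), the marker of the label that the selection did not use, was at 180, 209, 180 and 121 CPM in members. Macrophage-marked cells had 3.43, 3.597, 2.62 and 1.38 CPM, so Elf5 RNA was present in members well above the level of cells that lack it. It did not differ one way between members and zero cells. Zero cells had 178, 190, 244 and 79.2 CPM of Elf5, higher than members in Cre+ replicate 2 and lower in Cre+ replicate 4, which held most members. The difference was 0.02 ± 0.13 on the log2 scale with an adjusted p of 0.969 (edgeR's quasi-likelihood test, Benjamini-Hochberg adjustment). After thinning every cell to 2000 UMIs, 30.8%, 29.7%, 28.4% and 19.4% of members had an Elf5 UMI, against 25.6%, 26.8%, 34.0% and 11.6% of zero cells. Casein-high cells had more, 309, 290, 256 and 237 CPM. That difference was −0.71 ± 0.13 (log2, SE) in members over casein-high cells, with an adjusted p of 0.0786, and −0.71 with an adjusted p of 0.0498 at matched depth. The members are therefore described below as Kit/Aldh1a3-positive luminal cells, since the label's remaining marker did not set them apart from zero cells over the 4 tumors.

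Kit is also a gene of mast cells and melanocytes. Of 10 mast cell genes, Tpsb2, Fcer1a and Ms4a2 were at 0 in members, the list summed to 1.502, 4.04, 1.77 and 1.02 CPM, and its most abundant gene was Il1rl1. Of 10 melanocyte genes, Tyrp1, Tyr and Slc45a2 were at 0, and the list summed to 97.8, 113, 669 and 196 CPM in members and 96.6, 106, 440 and 178 CPM in zero cells. Most of that sum was Sox10, a factor of neural crest cells that mammary epithelium also expresses, at 95.4, 109, 90.0 and 121 CPM in members, and agouti (symbol a), at 0.300, 0, 575 and 68.9 CPM. The other 7 genes of each list were above 0 in at least 1 library, and their part in the results was not tested. Agouti was nearly absent from both Cre- libraries and present in both Cre+ libraries, whose mice the study told from their littermates by coat color. Macrophage genes summed to 145, 147, 243 and 281 CPM in members, against 202, 432, 474 and 460 CPM in zero cells and 61670, 65140, 78060 and 54550 CPM in macrophage-marked cells. All libraries had less macrophage RNA in members than in zero cells, and its part in the comparison below was not tested. No doublet caller was run.

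Members made up a larger share of the eligible cells in Cre+ tumors. The share was 37.5% (exact binomial 95% interval 32.6 to 42.6), 29.8% (26.1 to 33.7), 63.3% (59.1 to 67.3) and 52.2% (49.7 to 54.6). Both Cre+ tumors were above both Cre- tumors, with means of 57.7% ± 7.86 and 33.7% ± 5.46 (SD, n = 2 mice each) and a difference of 24.0 percentage points. The two-sided exact permutation test gave p = 0.33, the smallest that 2 mice against 2 can give, so the test could not reach 0.05 whatever the shares. These intervals cover counting error only.

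Thinning every eligible cell to 2000 UMIs kept the order of the groups. At least 1 UMI of Kit or Aldh1a3 was then found in 18.9%, 12.4%, 33.4% and 29.0% of eligible cells, a difference of 15.6 points, again with no overlap. With 2 or more UMIs in thinned cells the shares were 6.30%, 3.07%, 11.3% and 8.75%, a difference of 5.33 points. Before thinning, 95.1%, 94.3%, 99.1% and 98.2% of members had a Kit UMI. In thinned members a UMI of either gene was found in 40.6%, 32.6%, 48.6% and 50.1%, and 1 of Kit in 32.9%, 28.0%, 45.7% and 46.4%. These shares therefore mostly count cells with Kit.

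**Figure D2:**
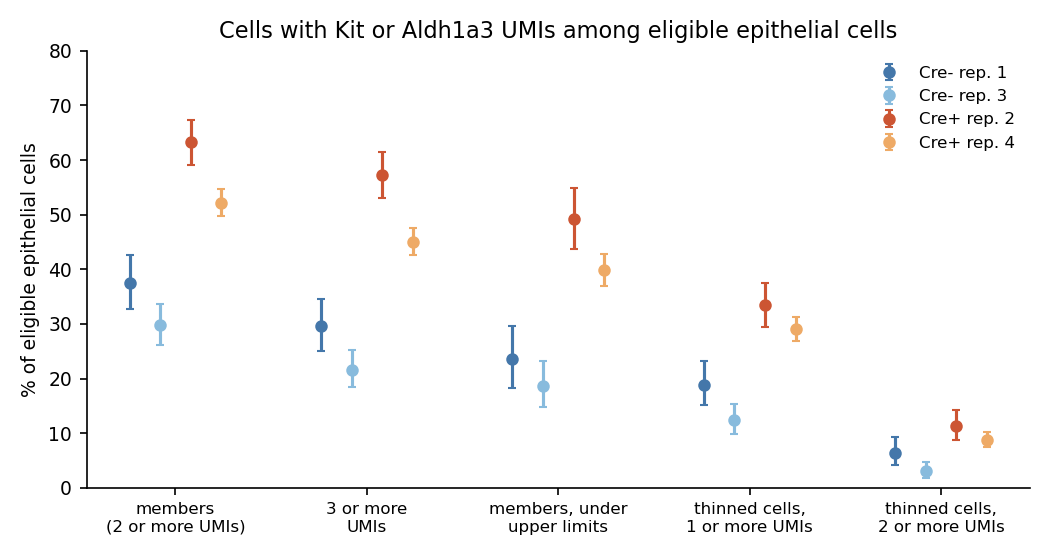
Share of eligible epithelial cells (percent, vertical axis) that were members, or that met another limit on Kit and Aldh1a3 UMIs, 1 point a library with its exact 95% binomial interval; upper limits are at most 5000 genes and under 30000 UMIs. Both Cre+ points lie above both Cre- points at every limit, from 52.2% and 63.3% against 29.8% and 37.5% for members to 8.75% and 11.3% against 3.07% and 6.30% for 2 or more UMIs in thinned cells.

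Next, members were compared with zero cells of the same tumor, with the mouse as a block, to see what else moved with Kit and Aldh1a3. Among the genes that rose were Ltf, the iron-binding antimicrobial protein of milk, and Lif, an IL-6 family cytokine. Of 12917 genes tested outside the rule, 17 were higher in members (0.132% of genes) and 8 were lower (0.0619%); without the mouse as a block none was called. Of 19 tested luminal progenitor genes outside the rule, 1 was called, also higher. All 19 had a positive log2 fold change, with a median of 0.49 against 0.01 over all genes. The gene lists were chosen with earlier results of these data known, so the direction of a list, here and below, is a description.

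Ltf was at 1003, 50.3, 530 and 848 CPM in members and at 181, 8.79, 55.8 and 49.8 CPM in zero cells. Levels differed widely between tumors, with Cre- replicate 3 lowest in both classes, and the classes overlapped. Genes named for the size of their change, here and in the comparisons of classes below, had to differ one way in every library tested, so that agreement was set by the choice and is no support. The share of all genes whose classes did not overlap is not given, so lack of overlap between classes is likewise a description. The log2 fold change was 3.05 ± 0.24 (SE, adjusted p = 0.00771, edgeR's quasi-likelihood test with Benjamini-Hochberg adjustment) and 3.57 (adjusted p = 0.00179) at matched depth. Lif was at 58.0, 71.1, 38.1 and 24.2 CPM against 16.2, 22.0, 19.2 and 3.40 CPM, with no overlap (1.74 ± 0.21, adjusted p = 0.0292, and 1.57 with an adjusted p of 0.0439 at matched depth). The keratin Krt23 rose by 1.04 ± 0.12 (adjusted p = 0.0249), from 38.9, 62.8, 59.9 and 75.3 CPM to 82.3, 101, 137 and 207 CPM, with no overlap of the classes, and by 1.02 at matched depth (adjusted p = 0.0292).

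Other genes that rose have roles in ion transport, transcription and the cytoskeleton. Atp6v1b1, a subunit of the proton pump V-ATPase, was at 40.4, 8.37, 162 and 19.9 CPM in members and 12.1, 4.04, 42.5 and 4.53 CPM in zero cells. Its log2 fold change was 1.73 ± 0.16 (adjusted p = 0.0103, edgeR's quasi-likelihood test) and 2.27 at matched depth. Tfcp2l1, a grainyhead-family transcription factor, was at 36.0, 3.77, 9.45 and 92.5 CPM against 16.2, 2.29, 3.66 and 25.1 CPM (1.34 ± 0.17). The homeobox factor Barx2 rose by 1.24 ± 0.16, Plscr2, a phospholipid scramblase, by 1.20 ± 0.14, and Atp10b, a lipid flippase, by 1.60 ± 0.21. Tubb2b, a beta-tubulin, was at 96.7, 86.7, 94.2 and 107 CPM against 41.1, 35.9, 40.2 and 59.0 CPM, the most even of these between tumors. Its log2 fold change was 1.07 ± 0.13, and 1.03 at matched depth (adjusted p = 0.0614, edgeR's quasi-likelihood test).

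Some of the genes called higher were seen mostly in Cre+ replicate 4. Dmkn, an epidermal secreted protein, was at 45.8, 22.6, 22.8 and 960 CPM in members against 4.77, 4.75, 5.49 and 331 CPM in zero cells (1.98 ± 0.26). Klk6, a serine protease, was at 0.300, 0.279, 0.615 and 184 CPM in members and at 45.9 CPM in zero cells of replicate 4, with 0 UMIs in the other zero cells. Its log2 fold change was 1.83 ± 0.23 (adjusted p = 0.0292, edgeR's quasi-likelihood test), and 1.43 with an adjusted p of 0.0964 at matched depth. The chemokine Ccl20, also called, was at 39.6 CPM in members of replicate 4 and at most 1.65 CPM in the others.

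Among the 8 lower genes, Stc2, a secreted glycoprotein hormone on the list of hormone-sensing genes, was at 4.80, 1.81, 2.92 and 18.9 CPM in members and 40.8, 4.04, 20.6 and 47.7 CPM in zero cells. The classes overlapped, and the difference was −2.17 ± 0.30 (log2, adjusted p = 0.0458, edgeR's quasi-likelihood test), and −2.62 at matched depth. Isyna1, which makes inositol phosphate from glucose phosphate, was at 84.8, 64.7, 32.0 and 40.3 CPM against 149, 126, 70.4 and 54.3 CPM (−0.89 ± 0.11, and −1.24 at matched depth). Upk3a, a uroplakin, was called on 1 library alone: it was at 210 CPM in zero cells and 3.46 CPM in members of Cre+ replicate 2 and at 0 in both classes of the others. The other 5 were not called at matched depth. Gm42418 and AY036118, which overlap ribosomal RNA, were lower by −1.29 and −1.25 and at matched depth by −0.08 and −0.14 (adjusted p = 0.805 and 0.548). Lars2, encoding a mitochondrial leucyl-tRNA synthetase, went from −1.14 to 0.19 (adjusted p = 0.433). The macrophage genes Lyz2 and Fcer1g went from −1.33 and −1.43 to −0.51 and −0.60 (adjusted p = 0.122 and 0.225).

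Depth was then matched in 87, 139, 102 and 316 cells of each class. Of 11650 genes tested, 61 were called (0.524%), and 14 of the 25 were among them. The median depths were then 18798, 24831, 11340.5 and 11997 UMIs in members and 18572, 26232, 10987 and 12151.5 in zero cells. Without a library the number of calls over all cells was 4, 16, 23 and 15 (leaving out replicates 1 to 4 in turn), and leaving out replicate 1 or 4 at matched depth gave 13 and 5. Of 17 genes named by the largest changes, 1, 9, 9 and 8 stayed called without replicates 1 to 4. Ltf alone stayed called without each of them. Lif, Klk6, Dmkn, Atp6v1b1, Tfcp2l1, Barx2, Stc2 and the rest were all lost without replicate 1.

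**Figure D3:**
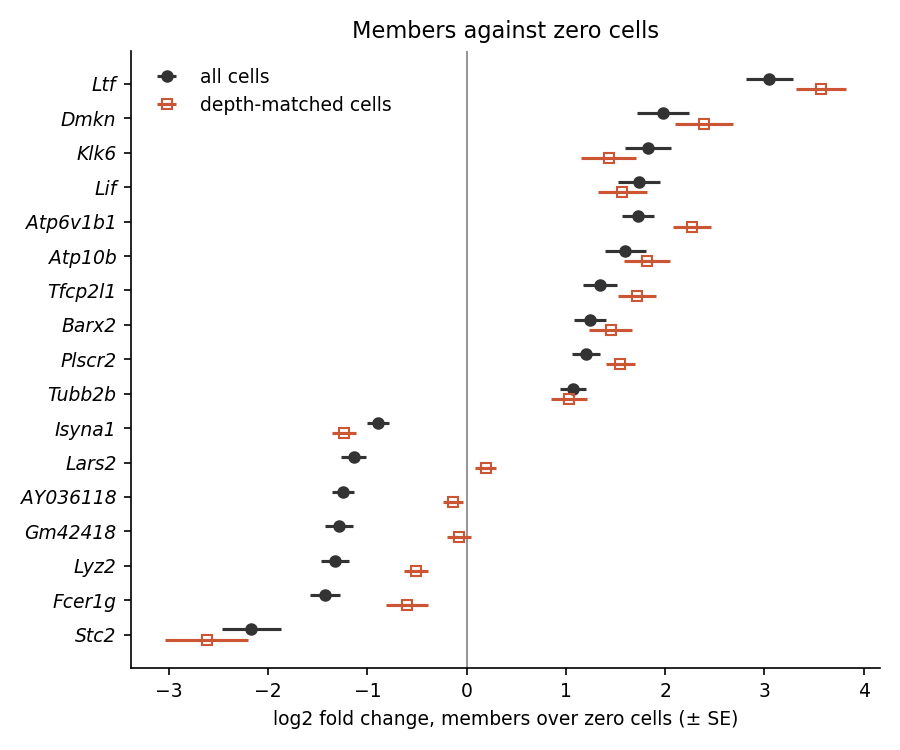
Log2 fold change of members over zero cells (horizontal axis, with its SE) for the named genes of this comparison, over all cells (filled) and in depth-matched cells (open). Ltf, Atp6v1b1, Tfcp2l1 and Stc2 lie farther from 0 at matched depth, whereas Gm42418, AY036118 and Lars2 move to near 0.

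By gene list, luminal progenitor genes other than Ltf did not pass the test. Wfdc18, a whey acidic protein family member and the most abundant gene of that list, was at 16900, 15760, 11770 and 19700 CPM in members against 10270, 10430, 8578 and 10760 CPM in zero cells. The classes did not overlap, and the difference was 0.60 ± 0.11 with an adjusted p of 0.0983, and 0.60 with an adjusted p of 0.112 at matched depth (edgeR's quasi-likelihood test). Cd14, the lipopolysaccharide co-receptor, was at 177, 110, 182 and 192 CPM against 63.9, 82.8, 105 and 36.2 CPM (1.20 ± 0.26, adjusted p = 0.135, and 0.0987 at matched depth). The tight junction gene Cldn3 was at 1068, 1212, 1016 and 1375 CPM against 725, 849, 822 and 791 CPM (0.49 ± 0.10, adjusted p = 0.105, and 0.249 at matched depth).

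Several lists leaned one way with few or no calls. Of 15 immediate early and heat shock genes, all were positive with a median of 0.60 and none was called; at matched depth 1 was, Egr1, an early growth response factor (0.79, adjusted p = 0.0292). Fos, a component of the AP-1 factor, was at 1578, 1520, 2986 and 2609 CPM in members and 1182, 936, 1482 and 1092 CPM in zero cells (0.79 ± 0.13, adjusted p = 0.0752, and 0.0541 at matched depth, edgeR's quasi-likelihood test). All 11 claudin and tight junction genes and all 10 squamous genes were positive, with medians of 0.34 and 0.79 and no call over all cells. At matched depth the squamous gene Sbsn was called (0.98, adjusted p = 0.0418, edgeR's quasi-likelihood test). Squamous genes summed to 221, 187, 244 and 2086 CPM in members against 217, 161, 224 and 605 CPM in zero cells, far higher in Cre+ replicate 4 alone. Of the cell cycle genes 0 of 18 were positive, with a median of −0.68 and no call. Their sums were 802, 528, 312 and 510 CPM in members and 781, 800, 620 and 479 CPM in zero cells. The sum was thus lower in members of replicates 3 and 2 and slightly higher in those of replicates 1 and 4. The limit on 5 cell cycle genes applied to both classes. Of 14 basal genes 5 were positive, with a median of −0.88, and at matched depth 2 were called higher and 3 lower. The higher ones were Igfbp5, an IGF binding protein (1.36, adjusted p = 0.0315, edgeR's quasi-likelihood test), and the basal keratin Krt14 (1.72). The lower ones were Acta2, the smooth muscle actin of myoepithelial cells (−3.38), the calponin Cnn1 (−3.19, adjusted p = 0.0398) and the basal keratin Krt5 (−3.22). Krt5 was at 0, 0.139, 0 and 6.75 CPM in members against 5.51, 38.7, 6.86 and 27.8 CPM in zero cells. The basal list, led by Igfbp5, summed to 1894, 2244, 5991 and 1411 CPM in members and 1607, 2401, 2182 and 1234 CPM in zero cells, higher in members of 3 of 4 tumors, and its part in the comparison was not tested.

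No gene of the Kit, retinoid or Notch lists was called over all cells, and at matched depth 1 retinoid gene was called lower, Crabp1, a retinoic acid binding protein, at 9.76, 0, 0.0769 and 0.0365 CPM in members. Of 18 Kit ligand and signalling genes 15 were positive, with a median of 0.19, of 12 retinoid genes 8 (median 0.18) and of 13 Notch genes 7 (median 0.09). Stat3, a transcription factor downstream of cytokine receptors and the most abundant of the Kit list, was at 275, 218, 302 and 346 CPM in members and 225, 164, 214 and 204 CPM in zero cells (0.43 ± 0.09, adjusted p = 0.126, and 0.151 at matched depth, edgeR's quasi-likelihood test). It was higher in members of each tumor. Of 13 type I interferon genes 8 were positive (median 0.13), of 14 EGF family genes 9 (0.33), of 15 hypoxia genes 8 (0.04), of 15 lipid genes 7 (−0.08), of 17 alveolar genes 9 (0.17) and of 25 lineage transcription factors 19 (0.12), with no call in any. Of 12 macrophage genes none was positive, 2 were called lower (none at matched depth) and the median was −1.09. Of 12 hormone-sensing genes outside the rule 4 were positive (median −0.16) and Stc2 was called lower, as was Fxyd2, a regulator of the sodium pump, at matched depth (−2.81, adjusted p = 0.0473). Of 15 antimicrobial genes 1 was called higher (Ltf) and of 15 chemokines and cytokines 2 (Lif and Ccl20), with 3 of 13 at matched depth (Lif, Cxcl2 and Cxcl16). No fibroblast, endothelial or melanocyte gene was called.

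Members were then compared with casein-high cells, a class of 4266 cells (1298, 1146, 1499 and 323) with median depths of 22906.5, 21936, 12345 and 29204 UMIs. The genes that rose in members included Pdgfb, Nkd2, Krt17 and Gja1, and those that fell included Chil1, Saa1, Folr1 and Lrg1. Of 14718 genes tested outside the rule, 26 were higher in members (0.177%) and 24 were lower (0.163%), and without the mouse as a block none was called. At matched depth 136 of 13286 were called (1.02%), and 42 of the 50 were among them. Without replicates 1 to 4 in turn the calls were 3, 22, 21 and 47. Of 20 genes named by the largest changes, 2, 7, 7 and 9 stayed called, and only Pdgfb and Chil1 without each replicate.

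Pdgfb, a ligand of the platelet-derived growth factor receptors, was at 43.2, 24.0, 12.8 and 58.3 CPM in members and 5.79, 4.73, 2.68 and 8.33 CPM in casein-high cells. The classes did not overlap (2.56 ± 0.14, adjusted p = 0.00243, edgeR's quasi-likelihood test with Benjamini-Hochberg adjustment). Nkd2, an inhibitor of Wnt signalling, was at 30.6, 20.1, 7.76 and 104 CPM against 2.24, 5.43, 1.40 and 6.91 CPM (3.00 ± 0.34, adjusted p = 0.0330). Axin2, a Wnt target, was called too (1.83 ± 0.17), at 77.1 CPM in members of replicate 4 and at most 2.55 CPM in those of the others. Krt17, a keratin of stressed and basal epithelium, was at 139, 153, 116 and 200 CPM in members and 14.5, 33.1, 21.3 and 15.7 CPM in casein-high cells, with no overlap (2.86 ± 0.23, adjusted p = 0.0137). The connexin Gja1 was at 62.2, 290, 119 and 256 CPM against 21.0, 61.4, 55.4 and 50.2 CPM (1.79 ± 0.21, adjusted p = 0.0330). Fermt1, an integrin activator, rose by 1.41 ± 0.18, P4ha2, a collagen prolyl hydroxylase, by 1.29 ± 0.15, the protease Prss23 by 2.52 ± 0.28 and Tnfrsf11b, the decoy receptor of RANKL, by 2.78 ± 0.38.

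Chil1, a chitinase-like secreted protein, was at 136, 22.7, 183 and 8.35 CPM in members and 843, 172, 854 and 42.5 CPM in casein-high cells. The classes overlapped (−2.55 ± 0.15, adjusted p = 0.00243, edgeR's quasi-likelihood test). The acute-phase protein Saa1 was at 72.7, 66.4, 47.1 and 36.6 CPM against 861, 170, 324 and 206 CPM, with no overlap (−2.59 ± 0.34, adjusted p = 0.0382). Folr1, a folate receptor of secretory epithelium, was at 111, 99.4, 79.7 and 74.6 CPM against 289, 184, 379 and 219 CPM (−1.55 ± 0.20, adjusted p = 0.0371). Lrg1, a secreted glycoprotein, was at 172, 108, 175 and 198 CPM against 586, 207, 396 and 391 CPM (−1.24 ± 0.16). Saa2, Crispld2, Ptx3, Sdf2l1, Arhgef6 and Apol7a were lower by −2.17, −2.21, −2.11, −1.46, −1.38 and −1.25.

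**Figure D4:**
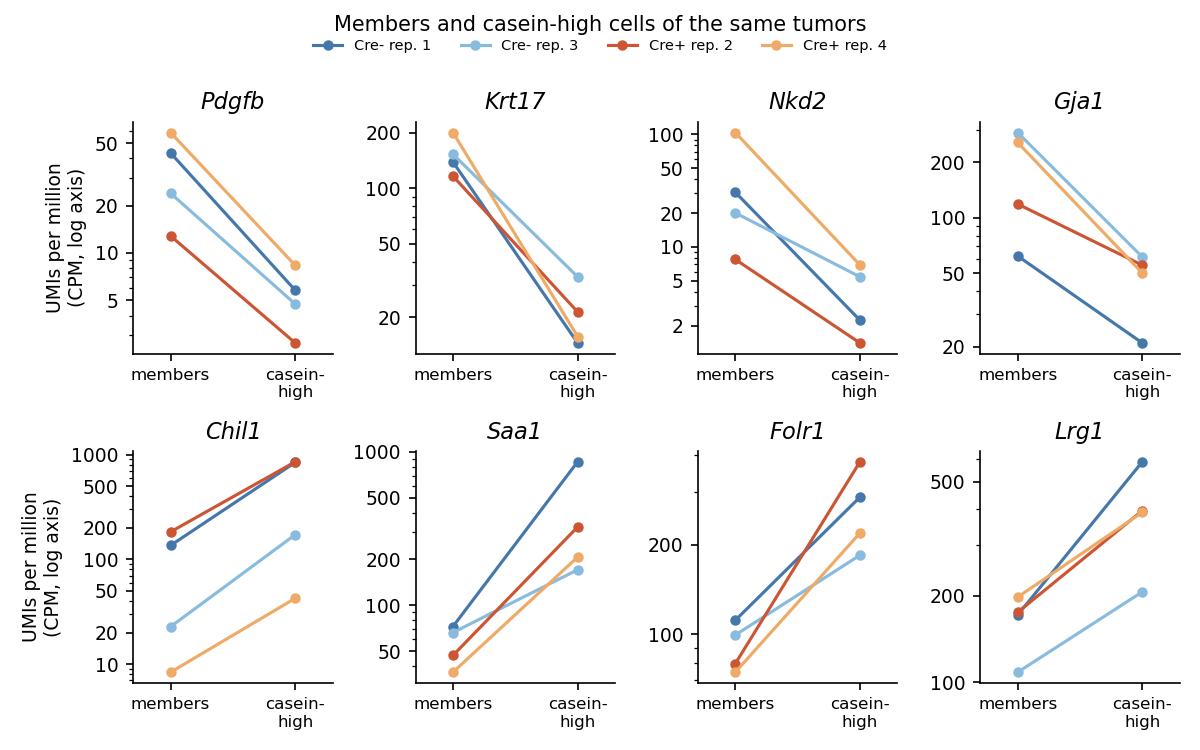
Levels (UMIs per 1000000, log axes that differ by panel) of 4 genes called higher (top) and 4 called lower (bottom) in members than in casein-high cells, with a line joining the classes of each tumor. The classes overlap only for Chil1; the genes were chosen for running one way in all 4 tumors.

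The lists gave 2 alveolar genes lower of 19 tested (Muc15 and Folr1), with 2 positive and a median of −0.93 against 0.00 over all genes; casein-high cells were selected on milk genes. Of 14 basal genes 2 were higher, also at matched depth (Krt17 and the calponin Cnn2), and the basal list summed to 1894, 2244, 5991 and 1411 CPM in members against 3454, 3305, 7006 and 576 CPM, its most abundant gene being Igfbp5 and none at 0. The part of these basal genes in the result was not tested. Squamous keratinocyte genes had the largest median, 1.88, with 10 of 11 positive, no call over all cells and 1 of 10 called higher at matched depth. They summed to 221, 187, 244 and 2086 CPM in members against 279, 168, 251 and 430 CPM, far above casein-high cells in Cre+ replicate 4 alone. Of 9 keratins outside the rule all were positive (median 1.12) and 1 was called, Krt17, and they summed to 865, 662, 618 and 2176 CPM against 414, 306, 337 and 394 CPM. Of 14 Notch genes 1 was higher, the ligand Jag1 (adjusted p = 0.0455, and 0.0614 at matched depth, edgeR's quasi-likelihood test), and of 17 antimicrobial and acute-phase genes 2 were lower (Saa1 and Saa2). Of 20 luminal progenitor genes 7 were positive (median −0.42) and Plet1, a surface protein of progenitors, was lower, at 460, 420, 509 and 468 CPM against 980, 674, 1165 and 806 CPM (−0.97 ± 0.12, adjusted p = 0.0371, edgeR's quasi-likelihood test). Bcl11a, a zinc finger factor of the same list, was at 52.6, 28.2, 32.4 and 54.9 CPM in members against 33.1, 20.2, 18.6 and 27.4 CPM (0.71 ± 0.11, adjusted p = 0.0606). At matched depth Bcl11a was called higher and Plet1, Elf5 and Tspan8 lower. All 13 interferon genes were negative without a call (median −0.44). Of 15 hypoxia genes 13 were positive (median 0.51), and 3 were called at matched depth, among them Vegfa, at 92.6, 166, 75.9 and 247 CPM against 37.8, 57.6, 55.1 and 84.5 CPM (1.19, adjusted p = 0.0366 at matched depth). All 10 fibroblast genes were positive (median 1.74), with no call over all cells and 1 at matched depth (Col6a1, a collagen, 1.94), and they summed to 901, 53.1, 766 and 24.6 CPM in members against 51.0, 142, 151 and 13.6 CPM, higher in 3 of 4 tumors, with Col3a1 the most abundant and none at 0; their part in the result was not tested.

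Members were not uniform. The few with Aldh1a3 and no Kit (7, 10, 3 and 15 cells) could be compared with Kit-only members in the 2 libraries that had at least 10, with 1 residual degree of freedom. They were shallower there, with median depths of 14503 and 14184 UMIs (replicates 3 and 4) against 31617 and 23454.5 in Kit-only members, and no fit on matched depth was made. Of 10594 genes, 253 were higher (2.39%) and 229 lower (2.16%) in Aldh1a3-only members, and none was called without the mouse as a block. Without the cell of 890 Aldh1a3 UMIs, which left a sum of 9 cells in Cre- replicate 3, 141 remained, all among the 482. That cell also held 162 of the 171 Csf2 UMIs and 242 of the 243 Inhba UMIs of the 10 Aldh1a3-only cells of its library, and 252 of their 284 Krt14 UMIs, whereas it held 3 of their 228 Krt17 UMIs.

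Over all 4 tumors, members with any Aldh1a3 UMI could be set against Kit-only members, a comparison chosen after the counts of cells were seen. Of 12290 genes, 251 were higher (2.04%) and 77 lower (0.627%) with Aldh1a3, and none was called without the mouse as a block. Median depths were 32121.5, 36389, 35878 and 28917 UMIs with Aldh1a3 and 41209, 31617, 26576 and 23454.5 in Kit-only members, higher with Aldh1a3 in 3 of 4 tumors. Depth was then matched in 42, 28, 46 and 144 cells a class. Of 10588 genes tested, 245 were higher and 46 lower (2.75% called), and 183 of these 291 were among the 328. Of 20 genes named by the largest changes, 14, 14, 14 and 12 stayed called without replicates 1 to 4, and Dynap, Emid1, Tnfaip2 and Tsix without each of them, of which Tsix was not called at matched depth. The keratins Krt19 and Krt7 and Ltf were among the higher genes. Krt19 was at 205, 124, 234 and 523 CPM in members with Aldh1a3 and at 60.1, 25.6, 85.2 and 91.6 CPM in Kit-only members, with no overlap (2.01 ± 0.16, adjusted p = 0.00226, and 1.70 with an adjusted p of 0.0193 at matched depth, edgeR's quasi-likelihood test). Krt7 was at 643, 537, 178 and 1463 CPM against 171, 151, 86.2 and 400 CPM (1.68 ± 0.14). Ltf was at 1737, 90.9, 867 and 2073 CPM against 453, 38.1, 411 and 489 CPM, higher with Aldh1a3 in each tumor (1.61 ± 0.16, adjusted p = 0.00336, and 1.66 at matched depth).

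Tnfaip2, a TNF-induced gene, was at 12.3, 39.1, 9.72 and 34.2 CPM against 1.05, 0.544, 0.832 and 5.80 CPM (3.46 ± 0.45). In Cre- replicate 3 the level rests mostly on the cell of 890 Aldh1a3 UMIs. That cell held all 63 Tnfaip2 UMIs of its library's 10 Aldh1a3-only cells. Without it the log2 fold change was 2.83 (adjusted p = 0.00588, edgeR's quasi-likelihood test). Csf1, the macrophage growth factor, rose by 1.36 ± 0.17. Of 8 tested keratins outside the rule 5 were higher, of 11 squamous genes 6, of 13 chemokines and cytokines 3 and of 13 interferon genes 3, and none of these was lower. At matched depth the same lists gave 4 of 7, 4 of 8, 4 of 9 and 1 of 13 higher, again with none lower. Markers of other cell types moved too: of 10 fibroblast genes all were positive (median 1.55) and 2 were higher, Dpt and Col6a1, and of 12 basal genes 2 were higher, Krt14 and Cnn2. Matched on depth, 5 of 10 fibroblast genes and 2 of 11 basal genes were called higher, where 2.75% of all genes were called in either direction. The fibroblast list summed to 1427, 64.4, 2022 and 17.7 CPM with Aldh1a3 against 507, 49.7, 322 and 26.6 CPM in Kit-only members, higher in 3 of 4 tumors, its most abundant gene being Col3a1 with Aldh1a3 and none at 0. The basal list summed to 2607, 2128, 5396 and 3043 CPM against 1360, 2280, 6201 and 934 CPM, higher in 2 of 4 tumors, with Igfbp5 the most abundant and none at 0. The part of these genes in the result was not tested. The squamous list summed to 272, 278, 282 and 6589 CPM against 182, 160, 230 and 769 CPM, higher with Aldh1a3 in each tumor and far the most in Cre+ replicate 4. Krt16, a keratin of activated epidermis, was at 650 CPM in members with Aldh1a3 of Cre+ replicate 4 against 56.7 CPM in its Kit-only members, and S100a7a at 173 against 3.39 CPM. Krt14 and Itga2 were not called without the cell of 890 Aldh1a3 UMIs (adjusted p = 0.204 and 0.0678).

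Lower with Aldh1a3 were Emid1, an extracellular matrix gene, at 269, 200, 384 and 83.7 CPM against 559, 505, 631 and 186 CPM (−1.05 ± 0.12, adjusted p = 0.00587, edgeR's quasi-likelihood test), and Xbp1, the unfolded protein response factor of secretory cells, at 336, 251, 615 and 918 CPM against 639, 790, 900 and 1556 CPM (−0.96 ± 0.17, adjusted p = 0.0278). The lipid synthesis genes Thrsp and Srebf1 were lower by −0.89 and −0.77, and Srebf1 was not called at matched depth (−0.78, adjusted p = 0.0555).

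Finally, members of Cre+ and Cre- tumors were compared, the contrast the study was made for. Frmd8 (ENSMUSG00000024816) was at 30.6, 25.8, 4.07 and 11.7 CPM in members, lower in both Cre+ tumors, with means of 28.2 ± 3.42 and 7.89 ± 5.40 CPM (SD, n = 2 mice each). The log2 fold change was −1.71 ± 0.58, with an adjusted p of 0.987 (edgeR's quasi-likelihood test). Zero cells had 21.7, 22.2, 7.77 and 7.60 CPM and casein-high cells 24.3, 24.8, 5.62 and 17.1 CPM, each lower in both Cre+ tumors. Macrophage-marked cells, where MMTV-Cre is not meant to act, had 26.3, 24.3, 19.8 and 13.7 CPM, lower in both Cre+ tumors too, and in Cre+ replicate 4 below its casein-high cells.

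**Figure D5:**
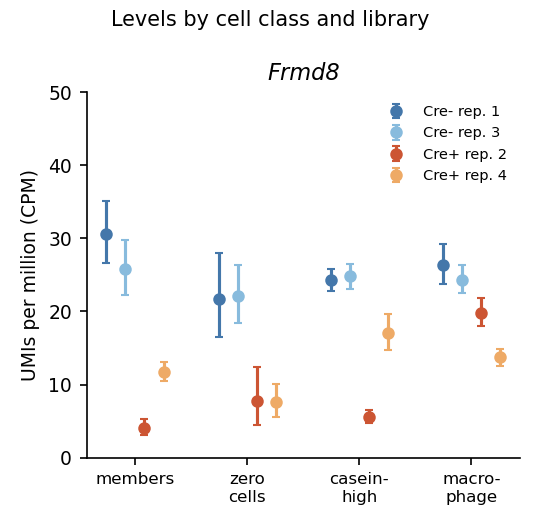
Frmd8 (UMIs per 1000000, vertical axis) in members, zero cells, casein-high cells and macrophage-marked cells, 1 point a library with its exact 95% Poisson interval, which covers counting error only. In members both Cre- points (25.8 and 30.6) lie above both Cre+ points (4.07 and 11.7), and both Cre+ points are also the lower ones in each of the other 3 classes.

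No gene was called between genotypes among 12905 tested (0.0%), with 559 at an unadjusted p under 0.05 and 85 called by DESeq2. The genotypes did not overlap in 34.1% of genes (4400), Frmd8 among them. Leaving out Cre+ replicate 2 gave 243 calls, replicate 4 gave 2, and either Cre- replicate gave 0. Each of these fits had 1 mouse in an arm and 1 residual degree of freedom, so the other genotype's 2 mice alone supplied the spread and the lone mouse was assumed to vary like them. Of the genes named by the study, the estrogen receptor gene Esr1 was at 2.55, 1.39, 3.31 and 0.255 CPM and its target Pgr at 4.66, 1.67, 5.46 and 0.292 CPM, with overlapping groups (−0.10 ± 1.25 and −0.08 ± 1.38). Hormone-sensing genes had been limited by the rule. Foxo3, a forkhead factor, was at 35.4, 49.9, 65.4 and 54.3 CPM (0.58 ± 0.26, adjusted p = 0.987), higher in both Cre+ tumors, and Ube3a, a ubiquitin ligase, at 118, 113, 116 and 111 CPM (0.07 ± 0.17), with overlap. Elf5 differed by −0.29 ± 0.25 (adjusted p = 0.987).

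The lists gave no call between genotypes either. All 18 cell cycle genes outside the rule were lower in Cre+ members in fold change (median −0.96, against 0.03 over all genes), and they summed to 802, 528, 312 and 510 CPM, lower in both Cre+ tumors. Mcm3, a subunit of the replication helicase, was at 23.3, 14.9, 7.69 and 5.98 CPM (−1.38 ± 0.33, adjusted p = 0.987, edgeR's quasi-likelihood test). Of 13 interferon genes 12 were positive (median 1.00), and they summed to 867, 596, 645 and 1664 CPM, with replicate 4 far above the other 3. Squamous genes summed to 221, 187, 244 and 2086 CPM, again high in replicate 4 alone (9 of 9 positive, median 4.05). Macrophage genes leaned the same way (10 of 11 positive, median 0.90, no call), with sums of 145 and 147 CPM in Cre- and 243 and 281 CPM in Cre+ members, and their part in these shifts was not tested. Of 19 luminal progenitor genes 13 were positive with a median of 0.16, and of 18 Kit ligand and signalling genes 9 with a median of 0.01. Kitl, the Kit ligand itself, was at 24.3, 35.6, 29.3 and 10.9 CPM, with overlap of the genotypes.

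The difference between members and zero cells was also compared between genotypes, gene by gene. The interaction was called for none of 12917 genes (0.0%), with 596 at an unadjusted p under 0.05. Without replicates 1 to 4 in turn the interaction gave 1, 137, 0 and 64 calls, again with 1 residual degree of freedom and 1 mouse in an arm.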

How the data were processed

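Single-cell RNA-seq of 4 mammary tumors, 1 library a mouse, was analysed from deposited matrices of raw counts, 1 UMI count for each of 32285 genes in each barcode, which the authors made with Cell Ranger (per the file headers, 6.1.2 for replicates 1 to 3 and 4 for replicate 4). The genome build of these counts is not given in the sources used here beyond a label, hg38, that goes against the mouse gene identifiers. Files of replicates 1 to 3 listed barcodes of at least 500 UMIs, and that of replicate 4 was unfiltered. The cells and gene lists were chosen with earlier results of these data known.

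Barcodes of at least 2000 UMIs were kept, and classes were set by the limits given above, or below for hormone-high cells. Macrophage-marked cells, defined by their own limits there, served as cells that lack the markers. Counts were summed per library and class (at least 10 cells) and tested with edgeR 4.0.16 (TMM, filterByExpr, quasi-likelihood test, R 4.3.3); the genes of the rule were dropped after the fit, and p-values were adjusted over all other genes by Benjamini-Hochberg, with a threshold of 0.05. CPM are UMIs of the summed counts per 1000000. Classes of 1 tumor came from the same mouse, which entered as a block; genotypes were compared without one. Shares were compared by an exact permutation test over the 4 mice, with Clopper-Pearson 95% intervals. Cells were also thinned to 2000 UMIs (numpy 2.4.6) or matched on depth in bins of 0.25 on the log2 scale. Alternatives were DESeq2 1.42.0, its size factors, no filter on low counts, upper depth limits (at most 5000 genes and under 30000 UMIs), replicate 4 with at least 10978 UMIs, a limit of 3 UMIs, and each replicate left out.

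Named genes were, for each test, up to 10 a direction with the largest fold change among called genes of at least 20 CPM in the higher class that differed one way in every library, plus list members of smallest adjusted p or highest level. On simulated data 72% of genes changed by 1 on the log2 scale were recovered in the comparison with zero cells (12949 genes). Between genotypes 1% were recovered (43% at a change of 2, 12935 genes). Counts were drawn from the fitted model, with the spread set by mean level and changes placed in better-counted genes alone. The rates hold for those settings only. The p-values between genotypes rest on the spread between 2 mice a group.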

Additional observations from a re-analysis of the deposited data

How the results depend on the processing

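Members against zero cells gave 25 called genes, and 179 with DESeq2, 401 without the filter on low counts, 300 under the upper depth limits, 39 with a limit of 3 UMIs, 169 in thinned cells and 61 in depth-matched cells. Leaving out 1 replicate gave 4 to 23, and 13, 71, 48 and 5 at matched depth. Members against casein-high cells gave 50, and 517 with DESeq2, 428 without the filter, 267 under the upper depth limits, 104 in thinned cells and 136 at matched depth; leaving out 1 replicate gave 3 to 47, and 16 to 72 at matched depth. Cre+ against Cre- members gave 0, 85 with DESeq2, and 0 to 243 when a replicate was left out. The interaction gave 0, and 0 to 137 when a replicate was left out. Aldh1a3-only against Kit-only members gave 482, 193 with DESeq2 and 141 without the cell of 890 Aldh1a3 UMIs. Members with any Aldh1a3 against Kit-only members gave 328, and 111 to 262 when a replicate was left out and 291 at matched depth. The cause of these shifts was not tested.

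Pairing came from the mouse, since the classes of a library share it. Without the replicate block no gene was called, a count of 0, in each comparison of classes: zero cells, casein-high cells, Aldh1a3-only members and members with any Aldh1a3. Genotypes lie between mice, so no paired analysis was possible for them.

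The share of members kept its direction, from 5.33 points in thinned cells with 2 UMIs to 33.1 points with replicate 4 at 10978 or more UMIs. Lars2 against zero cells turned from −1.14 to 0.19 at matched depth, and to 0.24, 0.17, 0.22 and 0.12 with replicates 1 to 4 also left out. Elf5 against zero cells, 0.02 with all libraries, ran from −0.09 to 0.18 when a replicate was left out (−0.09 without replicate 4, −0.01 without replicate 3) and was −0.03 without the replicate block and −0.08, −0.01 and −0.02 at matched depth without replicates 1, 3 and 4. Between genotypes Esr1 became 0.05 with a limit of 3 UMIs, and ran from −2.76 to 0.80 when a replicate was left out (0.36 without replicate 1, 0.80 without replicate 4), and Pgr from −3.25 to 0.85 (0.79 and 0.85 without those replicates). Leaving out replicates at matched depth, removing the 1 cell and comparing members with any Aldh1a3 UMI, also at matched depth, were chosen after seeing the data. The upper depth limits and leaving out replicate 3 or 4 were not run for Aldh1a3-only members, which then lacked 10 cells in 2 libraries. With 2 mice a group, few changes of 1 on the log2 scale between genotypes could be called.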

Other observations

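Around the members, the 1-UMI cells just outside the limit had an Elf5 level of 205, 203, 193 and 86.8 CPM (Cre- replicates 1 and 3, Cre+ replicates 2 and 4). The hormone-high cells had 10 or more UMIs per 10000 of Prlr, Cited1 and Foxa1, under 50 of the milk protein genes and any number of Kit and Aldh1a3 UMIs, and met the other limits. They were 319 in all, with 259 and 54 cells in replicates 1 and 2, 6 in replicate 3 and none in replicate 4. They had Elf5 at 54.4 CPM (Cre- replicate 1) and 20.2 CPM (Cre+ replicate 2), below the members of the same tumors.

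Members still held some RNA of genes used as upper limits. Csn3, a casein gene, was at 2364, 2051, 1084 and 1266 CPM in members and 1823, 1956, 1335 and 950 CPM in zero cells, against 13690, 16510, 19680 and 9702 CPM in casein-high cells. Csn2, the beta-casein gene, was at 0, 0, 0.0769 and 23.3 CPM in members and at 585 CPM in the casein-high cells of Cre+ replicate 4 alone, with at most 1.24 CPM in those of the others. Wap, the whey acidic protein gene, was at 199, 37.4, 13.9 and 6.31 CPM in members, highest in Cre- replicate 1.

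Igfbp5, a growth factor binding protein, was the most abundant gene of the basal list in members, at 1162, 1741, 5451 and 406 CPM. Spp1, encoding osteopontin, was at 154, 2349, 34.8 and 9.99 CPM in members and 1580, 4818, 1381 and 117 CPM in casein-high cells (−3.37 ± 0.64, adjusted p = 0.0801, edgeR's quasi-likelihood test), lower in members of each tumor. Its level in members of Cre- replicate 3 was above that in the casein-high cells of the 3 other tumors. Trf, encoding transferrin, was at 4450, 6436, 4995 and 706 CPM in members, and at 350 CPM in zero cells of Cre+ replicate 4, the lowest of the 4 tumors in both classes.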
